A study of Mus musculus with 14 samples.

Results

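The MS4A genes (membrane-spanning 4-domains, subfamily A) encode small proteins that cross the cell membrane several times, and 8 of them are described here in mouse intervertebral discs: Ms4a4a, Ms4a4b, Ms4a4c, Ms4a4d, Ms4a6b, Ms4a6c, Ms4a6d and Ms4a7. They were taken by name from a table of 55487 genes, in which 13 other genes carry an Ms4a name. The choice used measured values: Ms4a4d led the family because of its rise in db/db over db/+ discs, so every value of that contrast is given here as a description. The contrast of STZ-HFD with Con+Veh was not the one the choice rested on, although its results were known by then, and it is tested. All 8 genes passed the filter on low counts, which asked for more than 1 CPM (a count scaled to the size of its library) in 3 or more of the 14 libraries.

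RNA was sequenced from tail discs of male mice, with 5 discs pooled per mouse and 1 library per mouse. The db/db mice (3 libraries) were homozygous for the Lepr db mutation of the leptin receptor, and the db/+ mice (3 libraries) were their heterozygous littermates, so both carried the mutant allele. Both groups were 3 months old and received no agent. The STZ-HFD mice (4 libraries) were C57BL/6J animals that ate a high-fat diet for 4 to 6 weeks, received a single streptozotocin injection of 100 mg/kg, a toxin of pancreatic beta cells, and stayed on the diet for a further 12 weeks. The Con+Veh mice (4 libraries) were C57BL/6J animals on chow that received the citrate buffer. The 2 cohorts differ in genotype, age, diet and handling, which cannot be told apart where db and C57BL/6J libraries are set side by side. All libraries carry the same batch label.

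MS4A proteins sit in the plasma membrane and in endosomes, where several of them attach to immune receptors and tune their signal. The founding members are CD20 of B cells (Ms4a1) and the beta chain of the high-affinity IgE receptor of mast cells (Ms4a2). Apart from Ms4a4d, whose cell type in the disc was not tested, the genes described here belong mainly to myeloid cells and T cells. A healthy disc holds few vessels and few immune cells. In bulk RNA a change in the number of expressing cells cannot be told apart from a change in RNA per cell.

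Total counts were 16076908 to 58943169 per library, and 3 counts corresponded to 0.0431 to 0.163 CPM, which covers counting error only. Of the low gene counts, 61.3% (Con+Veh replicate 1) to 80.2% (STZ-HFD replicate 1) were even numbers. Single gene counts may therefore not stand for independent fragments, which was not tested. Ribosomal RNA genes, taken with the most abundant gene CT010467.1, held 28.1% to 39.7% of the counts in the db cohort. In the C57BL/6J libraries they held 44.4% to 60.2%, so the cohorts also differ in the make-up of their libraries. Some libraries stood apart. STZ-HFD replicate 1, the shallowest, had counts on 42626 genes, against 25194 to 29924 in the other 13 libraries. It held counts on 13 of the 13 other Ms4a genes, against 4 to 8 elsewhere, among them Ms4a12 with 80 counts, against 1 count in the other 13 libraries together. In the transcript table, which the authors made separately from the same reads, 12 of those 13 genes had no count in this library. This was not particular to it for Ms4a20 and Ms4a10. With 495 and 39 gene counts in the other 13 libraries, they had no transcript count in any library. The transcript counts of Ms4a4a, Ms4a4b, Ms4a4c, Ms4a4d and Ms4a6b together came to 8.29% of their gene counts in STZ-HFD replicate 1, 17.5% in Con+Veh replicate 1 and 19.3% in Con+Veh replicate 4, against 30.1% to 40.5% in the other 11 libraries. The fitted changes in STZ-HFD are given with and without its replicate 1. The disc itself was seen in its matrix genes: 6 cartilage-like genes summed to 17977 to 58494 CPM in the db cohort, 3955 to 18228 CPM in Con+Veh and 1122 to 2148 CPM in STZ-HFD. Against Con+Veh, 6 of 6 were called lower in STZ-HFD, beside 1.31% of all genes tested.

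The 8 genes lie close together on chromosome 19 of GRCm38. They span positions 11321039 to 11604849, an interval with 9 protein-coding genes, inside the 10962293 to 11640851 interval that holds 19 annotated Ms4a genes. The order along the chromosome is Ms4a7 (ENSMUSG00000024672, minus strand), Ms4a4a (ENSMUSG00000101389), Ms4a4c (ENSMUSG00000024675), Ms4a4b (ENSMUSG00000056290), Ms4a6c (ENSMUSG00000079419), Ms4a6b (ENSMUSG00000024677), Ms4a4d (ENSMUSG00000024678) and Ms4a6d (ENSMUSG00000024679, minus strand). Ms4a4d itself runs from 11536801 to 11558467 on the plus strand and has a single annotated transcript.

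Some members are close in sequence, which bears on how reads are assigned. Over aligned coding bases, Ms4a4c was 91.7% identical to Ms4a4b and 87.9% to Ms4a4d, whereas Ms4a4a was 68.4% to 70.0% identical to those 3. Ms4a6b was 86.4% identical to Ms4a6c and 81.8% to Ms4a6d, and Ms4a7 was 61.6% to 65.1% identical to the Ms4a6 genes. Even so, stretches of 50 bases found in another gene made up 8.19% or less of the exon sequence in 7 of the 8 members, with 0.55% in Ms4a4d and 0% in Ms4a4a. The exception was Ms4a6c, at 51.4%. Most of this is an overlap on the opposite strand: 1088 of the 2050 exonic bases of Ms4a6c (53.1%) are also exonic in BE692007, a noncoding gene.

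The similarity extends to the promoters. The sequences just before the transcription start are shown for the Ms4a4b and Ms4a4c pair, the Ms4a6b and Ms4a6c pair and Ms4a4d, since Ms4a4c, Ms4a4d and Ms4a6b are among the genes that stood higher in db/db. Each runs from 90 bases before the start to 10 bases from the start onward, 5′ to 3′ on the plus strand, as given by RefSeq on GRCm38.p6, and lies at chr19:11407571-11407670, chr19:11443468-11443567, chr19:11469278-11469377, chr19:11518469-11518568 and chr19:11536704-11536803 in the order printed. Capitals mark GAGGAA and the letters GGAAGT or, on the other strand, ACTTCC. The latter hold the GGAA core bound by ETS factors, a family that includes PU.1 of myeloid cells.
Ms4a4c: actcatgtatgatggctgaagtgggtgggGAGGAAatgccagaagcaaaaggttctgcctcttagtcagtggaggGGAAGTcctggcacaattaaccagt
Ms4a4b: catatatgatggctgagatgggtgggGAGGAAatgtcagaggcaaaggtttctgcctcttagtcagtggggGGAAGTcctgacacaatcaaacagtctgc
Ms4a6c: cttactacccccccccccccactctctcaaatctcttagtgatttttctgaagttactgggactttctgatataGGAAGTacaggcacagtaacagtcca
Ms4a6b: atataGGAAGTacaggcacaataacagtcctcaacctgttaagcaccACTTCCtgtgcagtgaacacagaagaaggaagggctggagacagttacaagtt
Ms4a4d: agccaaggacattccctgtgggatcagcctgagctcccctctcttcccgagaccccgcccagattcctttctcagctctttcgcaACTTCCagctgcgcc

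The Ms4a4c and Ms4a4b promoters were 80.9% identical over 282 aligned bases, and both carried GAGGAA followed by GGAAGT at nearly the same distance from the start. The Ms4a6c and Ms4a6b promoters were 85.9% identical over 220 aligned bases, and the stretch around GGAAGT recurs in both, shifted along the window. The Ms4a4d window aligned with none of the others over 200 bases or more, and its ACTTCC reaches across the start, from 5 bases before it to its first base. Promoter windows of 300 bases were found for 7 of the 8 members, with 2 for Ms4a7 and no entry for Ms4a6d. GGAAGT, searched on both strands, was in 6 of these 8 windows, and in 23.8% of 32851 promoters of the same length. It was absent from the window of Ms4a4a, which also stood higher in db/db and is not printed, and from 1 Ms4a7 window. Ms4a4b, Ms4a6c and Ms4a7, whose db groups overlapped, each had it. GAGGAA was in 3 of 8 (28.3% of all), and its last 4 letters are the first 4 of GGAAGT. Of the other motifs searched on both strands, TATAAA was in 1 of 8 (13.6%), TTGCNNAA in 1 (10.8%) and TGANTCA in 2 (7.8%). A match of letters is not a measured binding site.

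Ms4a4d, the least studied of these genes, had the highest level per exon length of the family in db/db, Con+Veh and STZ-HFD discs. Its CPM were 10.6, 8.20 and 5.81 in db/db and 0.287, 2.00 and 0.824 in db/+, from 672, 571 and 370 counts against 14, 115 and 53. The db/db and db/+ libraries did not overlap, and the mean was 8.19 ± 2.38 CPM (SD, n = 3) against 1.04 ± 0.876 (n = 3), a 7.90-fold ratio. Its log2 fold change was 3.19 ± 0.51 (SE), and it was the only member called higher, with limma's adjusted p below 0.05 and a change of 1 or more on the log2 scale, a rule that called 1.23% of the 16915 genes tested higher in db/db. As the gene was chosen on this contrast, nothing is read from that call.

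All 8 C57BL/6J libraries had Ms4a4d levels between the means of db/+ and db/db. Con+Veh discs had 5.27, 3.84, 6.20 and 7.93 CPM, and STZ-HFD discs had 2.71, 4.20, 6.37 and 4.07 CPM. Every one of these 8 libraries lay above all 3 db/+ libraries, whereas the db/db range overlapped with both Con+Veh and STZ-HFD. The contrast of the db groups thus set the lowest Ms4a4d levels of the series against levels that were partly within the C57BL/6J range. That overlap depends on the scaling of library sizes by TMM factors used here. Scaled by the library total alone, db/db had 13.7, 13.2 and 7.07 CPM. These lay above the highest C57BL/6J library, Con+Veh replicate 4 at 6.30 CPM. Ms4a4d supplied 34.7% to 41.3% of the summed CPM of the 8 members in db/db, 25.5% to 49.8% in Con+Veh and 22.9% to 41.7% in STZ-HFD, but 10.7% or less in 2 db/+ libraries and 27.2% in the third. The transcript table gave the same picture, with 219, 170 and 90 counts of Ms4a4d-201 in db/db and 3, 39 and 14 in db/+.

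**Figure D1:**
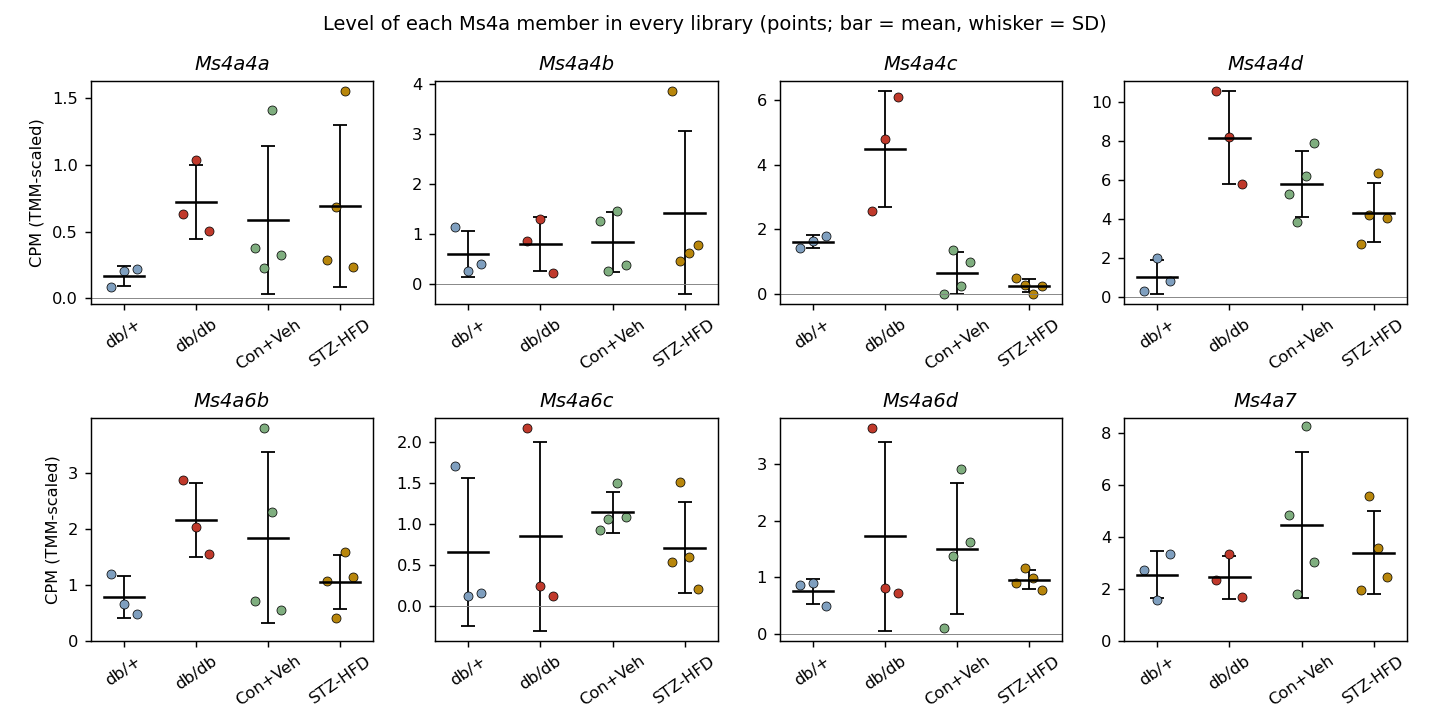
CPM scaled with TMM factors (vertical axes, which differ between panels) of the 8 Ms4a members in every library of the 4 groups (horizontal axes), with the mean as a bar and the SD as a whisker. The 3 db/+ libraries of Ms4a4d lie at 2.00 CPM or less, below all libraries of the other groups, and the highest Ms4a4b value, 3.86 CPM, is STZ-HFD replicate 1.

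Of the other Ms4a4 genes, Ms4a4c differed from Ms4a4d in its pattern across the groups. Ms4a4c marks classical monocytes and is also found in lymphocytes. It had 2.56, 4.81 and 6.10 CPM in db/db and 1.42, 1.63 and 1.80 CPM in db/+, again without overlap (log2 fold change 1.39 ± 0.43). In Con+Veh it had 0, 1.37, 0.235 and 0.978 CPM, and in STZ-HFD 0.493, 0.275, 0 and 0.238 CPM. All 8 C57BL/6J libraries therefore lay below the 6 libraries of the db cohort, the reverse of the order of db/+ and C57BL/6J discs for Ms4a4d. The 2 paralogs, 87.9% identical in coding sequence, followed different patterns across the same 14 libraries. Of the Ms4a4c transcript counts, 86.7% fell on Ms4a4c-201.

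Ms4a4a encodes a macrophage surface protein that associates with the fungal receptor dectin-1. Its CPM were 0.629, 1.03 and 0.503 in db/db and 0.0821, 0.209 and 0.218 in db/+, without overlap, but these rest on 32 to 72 counts against 4 to 14. The log2 fold change was 2.05 ± 0.93. Con+Veh libraries had 0.380, 0.229, 1.41 and 0.326 CPM and STZ-HFD libraries 0.288, 0.688, 1.55 and 0.238 CPM, so that each C57BL/6J group held a single library above 1 CPM.

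Ms4a4b, an adapter of T cells that modulates their activation, had 0.865, 1.29 and 0.220 CPM in db/db and 1.13, 0.261 and 0.404 CPM in db/+. These ranges overlapped, and the log2 fold change was 0.47 ± 0.77. Con+Veh libraries had 1.25, 0.249, 1.46 and 0.380 CPM and STZ-HFD libraries 3.86, 0.447, 0.621 and 0.773 CPM. The highest value, from 94 gene counts, belonged to STZ-HFD replicate 1, in which the 7 Ms4a4b transcripts had 0 counts together. Con+Veh replicate 1 likewise had 46 gene counts and 0 transcript counts. Only 37.9% of the Ms4a4b transcript counts fell on the coding transcript Ms4a4b-201, and most of the rest on transcripts with retained introns.

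Ms4a6b, which like Ms4a4b is found in T cells, stood higher in every db/db library. It had 2.86, 2.02 and 1.56 CPM in db/db and 1.19, 0.661 and 0.482 CPM in db/+ (log2 fold change 1.54 ± 0.54). Con+Veh libraries had 0.706, 3.80, 2.30 and 0.543 CPM, a wider range than that of the whole db cohort, and STZ-HFD libraries had 1.07, 0.413, 1.58 and 1.13 CPM. With TMM factors the db/db libraries thus lay inside the Con+Veh range. Scaled by the library total alone, they had 3.72, 3.25 and 1.89 CPM, against 3.10 CPM in the highest Con+Veh library. Neither statement on the Con+Veh range holds with that scaling.

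Ms4a6d, a macrophage gene whose protein has been linked to control of the inflammasome, had 3.63, 0.804 and 0.723 CPM in db/db and 0.862, 0.904 and 0.497 CPM in db/+. A single db/db library set its mean apart, and the groups overlapped (log2 fold change 0.76 ± 0.71). Con+Veh libraries had 0.109, 1.37, 2.91 and 1.63 CPM and STZ-HFD libraries 0.904, 1.17, 0.994 and 0.773 CPM, a much narrower range. The transcript counts held no entry for Ms4a6d-201, and Ms4a6d had 21.6 transcript counts beside 735 gene counts over all libraries.

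Ms4a7 is expressed by macrophages, in particular those at tissue borders, and showed the smallest difference of the 8 genes between the db groups. It had 2.33, 3.34 and 1.70 CPM in db/db and 2.73, 1.57 and 3.34 CPM in db/+, with a log2 fold change of 0.02 ± 0.49 whose 95% interval ran from -1.01 to 1.05. In Con+Veh it had 4.84, 1.79, 8.27 and 3.04 CPM and in STZ-HFD 1.97, 5.61, 3.57 and 2.47 CPM. These ranges overlapped as well. The transcript counts held no entry for Ms4a7-201 and Ms4a7-203, and Ms4a7 had 338 transcript counts beside 1832 gene counts over all libraries.

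Ms4a6c, another gene of classical monocytes, had the widest gap in log2 fold change in db/db between the gene and the transcript table, among the 7 members fitted in both. In the gene table it had 138, 17 and 8 counts in db/db and 83, 7 and 10 counts in db/+, a log2 fold change of 0.44 ± 1.02. In the transcript table it had 104, 91 and 34 counts in db/db and 46, 4 and 23 counts in db/+, a log2 fold change of 2.05 ± 0.75 in the same fit. In db/db replicates 2 and 3 the transcript table thus held several times more Ms4a6c counts than the gene table, although gene counts exceeded transcript counts by 2.76 to 3.82 times over all libraries for Ms4a4a, Ms4a4b, Ms4a4c, Ms4a4d and Ms4a6b, and by 1.18 times for Ms4a6c. The antisense gene BE692007 had 28, 55 and 3 gene counts in db/db and 22, 10 and 25 in db/+. Adding its counts to those of Ms4a6c gave a log2 fold change of 0.27 ± 0.85. Such a sum cannot restore reads that were counted for neither gene, so nothing is read from it. The library preparation named in the labels amplifies double-stranded cDNA and strand-aware counting is not stated, so reads of Ms4a6c and BE692007 cannot be told apart where they overlap, and the Ms4a6c gene counts are uncertain.

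**Figure D2:**
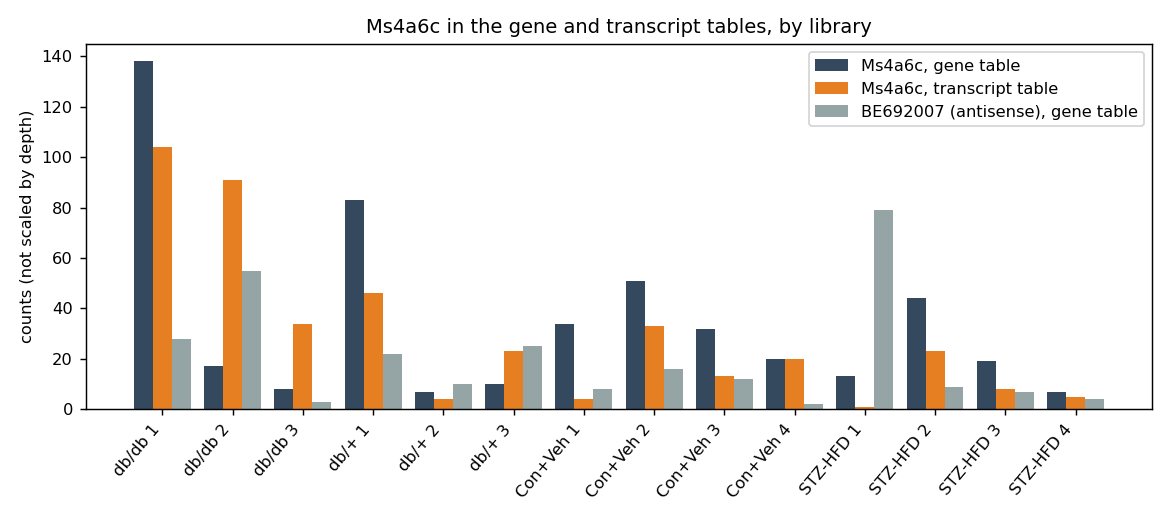
Counts of Ms4a6c in the gene table, of its transcripts in the transcript table and of the antisense gene BE692007 in the gene table (vertical axis, not scaled by depth) in each of the 14 libraries (horizontal axis). In db/db replicate 2 the transcript table holds 91 counts of Ms4a6c, against 17 counts by gene, whereas in STZ-HFD replicate 1 BE692007 has 79 counts and the Ms4a6c transcripts have 1.

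Between the db groups the 8 members were thus spread from a log2 fold change of 0.02 to 3.19, with a median of 1.08, beside -0.04 over all 16915 genes. All 8 were above 0, but 3 signs were not stable. That of Ms4a7 turned under 9 alternatives, among them edgeR's quasi-likelihood test (-0.05). Ms4a4b had -0.33 with the replicate block and the GC trend removed and -0.09 without db/db replicate 2. Ms4a6c had -0.67 without db/db replicate 1, -0.15 without db/+ replicate 2 and -0.08 without db/+ replicate 3. The libraries of db/db lay above all db/+ libraries for 4 of 8 members (Ms4a4a, Ms4a4c, Ms4a4d and Ms4a6b), a pattern shown by 14.1% of all genes tested. With the edgeR test, which called 0 genes higher in db/db, Ms4a4d had an adjusted p of 0.116. The fold change in this contrast also ran with base composition: across 16899 genes it had a Spearman rho of -0.428 with the GC content of the exons, and the members had 37.2% to 44.1% GC beside a median of 49.1%. With the GC trend of each library removed, the log2 fold changes were 2.95 for Ms4a4d, 1.81 for Ms4a4a, 1.20 for Ms4a6b, 1.07 for Ms4a4c and -0.22 for Ms4a7.

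**Figure D3:**
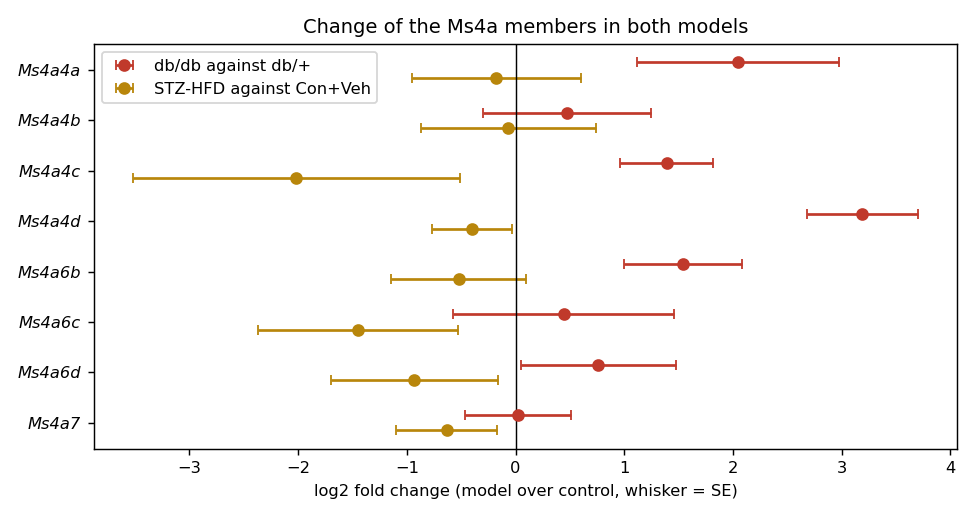
Log2 fold change (horizontal axis, whisker = SE) of the 8 members (vertical axis) in db/db over db/+ and in STZ-HFD over Con+Veh, from the same limma fit. The db/db values run from 0.02 (Ms4a7) to 3.19 (Ms4a4d), and the STZ-HFD values from -2.02 (Ms4a4c) to -0.07 (Ms4a4b).

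Levels were also set per kilobase of annotated exon, a scale that depends on the length annotated for each gene. On this scale Ms4a4d in db/db had 5.42 ± 1.57 CPM per kb (SD, n = 3) and Ms4a4c 2.56 ± 1.02. Ms4a6d followed at 0.992 ± 0.956, Ms4a4a at 0.864 ± 0.332, Ms4a7 at 0.552 ± 0.187, Ms4a6b at 0.479 ± 0.148, Ms4a6c at 0.413 ± 0.560 and Ms4a4b at 0.0903 ± 0.0615. From Ms4a6d to Ms4a6c, neighbours in this order differed by less than the larger of their SDs. In db/+ the first place went to Ms4a4c, at 0.924 ± 0.111 CPM per kb, next to Ms4a4d at 0.685 ± 0.579, and these 2 levels differed by less than the spread of Ms4a4d. In Con+Veh, Ms4a4d had 3.84 ± 1.13 CPM per kb (SD, n = 4) and the next gene, Ms4a7, 1.01 ± 0.633. In STZ-HFD, Ms4a4d had 2.87 ± 0.999, followed by Ms4a4a at 0.827 ± 0.728. The low rank of Ms4a4b depends on its 8780 annotated exon bases, which include retained introns. The same limit holds for Ms4a6b (4485 bases) and Ms4a7 (4453), beside 1513 bases for Ms4a4d. Without division by length, the Con+Veh means were 5.81 CPM for Ms4a4d and 4.48 CPM for Ms4a7.

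**Figure D4:**
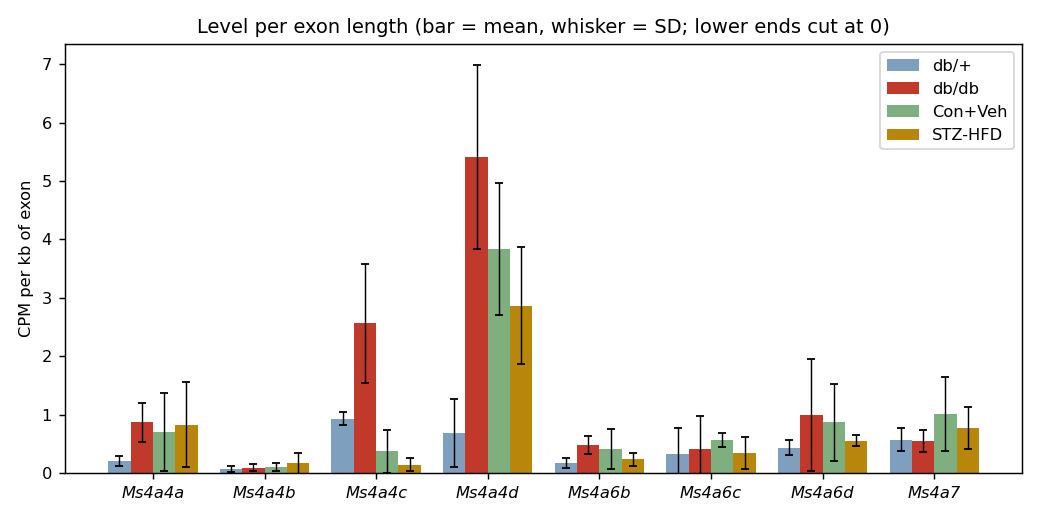
CPM per kilobase of annotated exon (vertical axis) of the 8 members (horizontal axis), with bars for the group means and whiskers for the SD over 3 (db/+ and db/db) or 4 (Con+Veh and STZ-HFD) libraries. Ms4a4d is the tallest in db/db (5.42), Con+Veh (3.84) and STZ-HFD (2.87), and Ms4a4c in db/+ (0.924).

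In STZ-HFD against Con+Veh, the contrast the genes were not chosen on, no member was called in either direction by limma over all 16915 genes, where 1.3% of genes were called higher and 1.31% lower. At an unadjusted limma p under 0.05 the count of members was also 0, beside 3025 of the 16915 genes. With edgeR's quasi-likelihood test and DESeq2, 0 members were called, although DESeq2 gave no adjusted p for Ms4a4a, Ms4a4b and Ms4a6c. With each model fitted alone, only 4 members were tested in this contrast, and 0 were called. No member had all STZ-HFD libraries below or above all Con+Veh libraries, patterns shown by 2.77% and 1.97% of all genes. The fitted log2 fold changes were all below 0, with a median of -0.58 beside -0.04 over all genes.

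Ms4a4d had 4.34 ± 1.51 CPM in STZ-HFD (SD, n = 4) and 5.81 ± 1.71 CPM in Con+Veh (n = 4). Its log2 fold change was -0.40 ± 0.37 (SE), with a 95% interval from -1.17 to 0.37 and an adjusted p of 0.620. In the transcript table the value was 0.13. Without STZ-HFD replicate 1 it was -0.29.

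The largest fitted difference among the members was that of Ms4a4c, at -2.02 ± 1.50 (adjusted p = 0.528), and its 95% interval from -5.19 to 1.16 holds changes in either direction. It had no count in a library of each group, and 12 counts or fewer in every STZ-HFD library, of which the 12 in replicate 1 had 0 transcript counts beside them. Ms4a6c had -1.45 ± 0.92 (adjusted p = 0.443), Ms4a6d -0.93 ± 0.77 (0.577), Ms4a7 -0.63 ± 0.46 (0.515) and Ms4a6b -0.52 ± 0.62 (0.714). The 95% intervals of these 4 genes all include 0. Without STZ-HFD replicate 1 the values were -2.49 for Ms4a4c, -1.40 for Ms4a6c, -0.91 for Ms4a6d, -0.56 for Ms4a7 and -0.47 for Ms4a6b. Leaving out other single libraries also changed the values. Ms4a4c had -0.41 without STZ-HFD replicate 3, and Ms4a6c had -0.63 without STZ-HFD replicate 4. Ms4a6d had -0.03 without Con+Veh replicate 3, and Ms4a6b had -0.03 without Con+Veh replicate 2.

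For Ms4a4a and Ms4a4b even the direction was not settled. The fit gave -0.18 ± 0.78 for Ms4a4a (adjusted p = 0.935) and -0.07 ± 0.80 for Ms4a4b (0.979), whereas the mean CPM was 1.18 and 1.71 times higher in STZ-HFD than in Con+Veh. The fit gave STZ-HFD replicate 1 a weight of 0.379 and Con+Veh replicate 1 a weight of 0.275, against 3.05 for Con+Veh replicate 3, while the ratio of means counts each library equally. Without STZ-HFD replicate 1 the values were 0.05 for Ms4a4a and -0.27 for Ms4a4b. Without quality weights they were 0.45 and 0.60.

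Outside the 8 members, 2 of the 13 other Ms4a genes passed the filter. Ms4a14 had a mean of 2.21 CPM in db/db, 1.50 in db/+, 3.00 in Con+Veh and 1.36 in STZ-HFD, and its log2 fold change of -1.33 ± 0.53 in STZ-HFD was not called (adjusted p = 0.191). Ms4a20 had -0.40 ± 0.77 there (adjusted p = 0.834). The B cell gene Ms4a1 had 0.157 to 0.675 CPM in db/db and 0.0870 to 0.124 CPM in db/+, from 47 counts or fewer per library. It stood at 3.54 CPM in STZ-HFD replicate 1 and at 0.376 CPM or less in the other C57BL/6J libraries. Of the rest, Ms4a8a had counts in 13 libraries, Ms4a2 in 9, Ms4a10 in 5, Ms4a15 and Ms4a18 in 4, Ms4a3 in 3, Ms4a5, Ms4a12 and Ms4a19 in 2 and Ms4a13 in 1, and STZ-HFD replicate 1 was among the libraries with counts of each.

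Genes whose products work with MS4A proteins, or belong to the same receptor systems, were taken as a list of 17, of which 14 were tested. None was called in db/db, where 1.23% of all genes were called higher and 0.432% lower. In STZ-HFD, 2 of 14 were called lower, beside 1.31% of all genes. Fcer1g, the signaling chain shared by IgE and IgG receptors, fell by 1.58 on the log2 scale (SE 0.40, adjusted p = 0.0358), from 10.8 CPM in Con+Veh to 4.02 CPM in STZ-HFD. Fcgr3, a low-affinity IgG receptor that signals through it, fell by 1.74 (SE 0.43, adjusted p = 0.0329), from 8.64 to 3.12 CPM, with every STZ-HFD library below every Con+Veh library. Both calls were lost with edgeR's quasi-likelihood test and without any one of Con+Veh replicates 3 and 4 and STZ-HFD replicates 2, 3 and 4, and the count was 1 without Con+Veh replicate 2. Tyrobp, the adapter of TREM2, had -1.61 ± 0.51 (adjusted p = 0.0897) and Trem2 itself, the lipid receptor of macrophages, -1.04 ± 0.55 (0.334). Clec7a, which encodes dectin-1, had -0.79 ± 0.43 (0.351), and Tnfrsf18, the T cell receptor GITR, -0.06 ± 0.44 (0.961). The others, Hcst, Syk, Fcgr1, Fcgr2b, Cd33, Apoe, Tmem176a and Tmem176b, ranged from -2.04 (Hcst, adjusted p = 0.113) to -0.23 (Syk) and were not called. In db/db, Cd33, a sialic acid receptor of myeloid cells, had 8.89 CPM against 4.53 in db/+, and Trem2 2.05 against 2.91.

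Markers of several cell types were summed in each library. As the background for their counts in db/db, 1.23% of all genes were called higher and 14.1% had every db/db library above every db/+ library. The 10 markers of macrophages and monocytes summed to 132 to 207 CPM in db/db and 129 to 169 in db/+, ranges that overlapped, and 0 of 10 were called. The 7 markers of tissue-resident macrophages summed to 96.4 to 185 CPM in db/db and 72.3 to 81.3 in db/+ (0 of 6 tested were called). Sums of adventitial fibroblast markers (228 to 357 against 137 to 213, 0 of 7 called), endothelial markers (228 to 252 against 136 to 194, 1 of 5 called) and mast cell markers (3.00 to 17.4 against 1.24 to 2.71, 0 of 5 called) also did not overlap. T cell markers summed to 2.69 to 5.20 CPM against 4.52 to 4.66, and none of the 2 tested was called. Adipocyte markers summed to 295 to 545 CPM against 195 to 407, and 3 of 6 were called higher. Much of this sum is Cfd, with a mean of 142 CPM in db/db and 215 in db/+. For Adipoq, Plin1, Cidec, Lipe and Fabp4, every db/db library lay above every db/+ library. Sums of B cell, neutrophil, skeletal muscle and notochord markers overlapped between the db groups. Their part in the values of the members was not tested.

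In the other cohort, where 1.3% of all genes were called higher and 1.31% lower in STZ-HFD, the macrophage and monocyte markers summed to 105 to 178 CPM in STZ-HFD and 140 to 258 in Con+Veh, with 2 of 10 called lower. Those of tissue-resident macrophages summed to 64.6 to 109 and 107 to 179 CPM, with 1 of 6 called lower. T cell markers summed to 1.20 to 8.35 and 1.58 to 5.12 CPM, and to 2.53 CPM or less in STZ-HFD without replicate 1. Skeletal muscle markers summed to 6305 to 14968 CPM in STZ-HFD and 5449 to 6555 in Con+Veh, with 2 of 6 called higher. The part of these differences in the values of the members was not tested. No marker in any of these lists was at 0 in all libraries.

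The genes whose log2 CPM ran most like that of Ms4a4d over the 14 libraries were Tek (Pearson r = 0.883), the angiopoietin receptor of endothelial cells, Vgll3 (0.867), Crebrf (0.847), Ints12 (0.843) and Slamf9 (0.830), a receptor of myeloid cells. The 14 libraries share the 4 groups, so group differences enter these values. With the group means removed, r was 0.824 for Slamf9, 0.697 for Vgll3, 0.438 for Tek, 0.326 for Crebrf and 0.196 for Ints12. Slamf9 had 0.584 ± 0.259 CPM in db/+, 1.31 ± 0.638 in db/db, 1.94 ± 0.960 in Con+Veh and 1.32 ± 0.515 in STZ-HFD. Within groups, Ms4a4d ran with Ms4a4a (r = 0.515) and hardly with Ms4a7 (0.062), and Ms4a4c had r = -0.231 with Ms4a4d. The closest pair of members was Ms4a4a with Ms4a7 (0.687). These are descriptions over 14 libraries with few counts.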

How the data were processed

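Whole discs were sequenced from 14 mice, and all 14 libraries were mapped to groups from their labels. The authors aligned reads with STAR 2.7.9a1 to Ensembl release 101 (GRCm38) and deposited raw gene counts from featureCounts 2.0.32. They also deposited expected counts (estimated counts per transcript) from Salmon 1.5.23, which were summed per gene and rounded as an alternative here. Versions are as the submitters' processing notes print them. Repeated lines (287) were dropped. Genes exceeding 1 CPM in 3 or more libraries (16915) were fitted with limma 3.58.1 (voomWithQualityWeights, edgeR 4.0.16 TMM factors, 4 group means), with Benjamini-Hochberg adjustment over all genes. Calls required an adjusted p below 0.05 and a change of 1 or more on the log2 scale. The fit was tested on simulated data. CPM values use TMM-scaled library sizes. Depth was 16076908 to 58943169 counts per library, ribosomal RNA included. Replicates are separate mice.

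Also tried were DESeq2 1.42.0, edgeR's quasi-likelihood test, other filters, scalings, GC correction, transcript counts, a replicate block and leaving libraries out. Joining Ms4a6c with BE692007 was added after the data were seen. The rule for named genes was every member, every other Ms4a gene with counts, partner genes passing the filter, and the 5 genes most correlated with Ms4a4d. The members and gene lists were chosen with earlier results of these data known. Gene positions, exon lengths and transcript sequences came from GENCODE M21, and promoters from RefSeq.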

Additional observations from a re-analysis of the deposited data

Results flagged for a closer look

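Ms4a4a had 1.41 CPM in Con+Veh replicate 3, against 0.229 to 0.380 CPM in the other 3 Con+Veh libraries, a gap that makes up 0.871 of the range of the group. The transcript table also held its highest Con+Veh count of Ms4a4a in that library, 12 against 0, 1 and 3.

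Ms4a4b had 3.86 CPM in STZ-HFD replicate 1, against 0.447 to 0.773 CPM in the other 3 STZ-HFD libraries, a gap of 0.905 of the range. This is the library with counts on 42626 genes, and it held 0 transcript counts of Ms4a4b beside 94 gene counts. The limit used (Dixon, 95%) nominally sets about 1 in 20 groups apart by chance.

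Ms4a4c and Ms4a6b stood on opposite sides of their control means in the 2 models. Every db/db library lay above the db/+ mean, with means of 4.49 CPM for Ms4a4c and 2.15 CPM for Ms4a6b, and every STZ-HFD library lay below the Con+Veh mean. For both genes the STZ-HFD libraries overlapped with the Con+Veh libraries, and limma's adjusted p was 0.528 for Ms4a4c and 0.714 for Ms4a6b. The difference between the models was not tested, because the genes were chosen on the db/db contrast.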

How the results depend on the processing

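In db/db, Ms4a4d was called by limma in all 6 fits that left out 1 db library (log2 fold change 2.67 to 3.89) and under every alternative except edgeR's quasi-likelihood test, where 0 members were called. In all other settings 1 member was called higher in db/db, 0 lower and 0 in STZ-HFD, leave-one-out fits included (1 to 1 and 0 to 0). The db/db refits reuse the libraries on which Ms4a4d was chosen, so nothing is read from them. The 18 STZ-HFD values that changed sign were all far from a call, and the cause was not tested. For Ms4a4a they were 0.26 with edgeR's quasi-likelihood test, 0.28 with DESeq2, 0.45 without quality weights, 0.10 without a filter, 0.10 with the replicate block, 0.46 without Con+Veh replicate 2 and STZ-HFD replicate 4, whose names share an ending, and -0.50 to 0.51 with 1 library left out. For Ms4a4b they were 0.77, 0.79 and 0.60 with the first 3 of these, 0.086 with the replicate block and -0.27 to 0.81 with 1 library left out. Ms4a4d had 0.13 with transcript counts, Ms4a6d 0.28 without quality weights, and Ms4a7 -0.85 to 0.19 with 1 library left out. The latter turned positive without Con+Veh replicate 3.

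Of the other Ms4a and partner genes, 2 were called lower in STZ-HFD. The count was 0 with edgeR's quasi-likelihood test, without quality weights, with filterByExpr, without a filter, with transcript counts and without that pair of libraries. It was 1 with the GC trend removed and with each model fitted alone, and 0 to 3 with 1 library left out. Fcer1g had no transcript count in any library, so its call could not be repeated with transcript counts. Over all genes, calls in db/db numbered 208 higher and 73 lower in the main fit, 0 and 0 with edgeR's quasi-likelihood test, 160 and 52 with DESeq2 and 7 and 2 without quality weights. In STZ-HFD they were 220 and 221, 6 and 23, 123 and 154, and 3 and 16.

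Same-numbered libraries did not deviate together (r of -0.28 to 0.19 in the db cohort and -0.26 to -0.04 in the other), so the numbers were not taken as pairs. With the replicate block, Ms4a4d had 3.52 in db/db, and the count of members called stayed at 1 and 0. Scaling by the library total without TMM factors moved 5 group means beyond their SD, Ms4a4d in db/db to 11.3 CPM, Ms4a4a to 1.03, Ms4a6b to 2.95 and Ms4a7 to 3.49, and Ms4a4c in db/+ to 1.93.

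Some values rest on few counts, such as Ms4a4a in db/+ with 4 to 14 and Ms4a4c in STZ-HFD with 0 to 12 per library.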
